A study of Mus musculus with 10 samples.

Results

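To see how the YAP/TAZ pathway responded in BCC cells when TGFß or AP-1 signaling was blocked, 10 genes were followed in RNA-seq of ASZ001 cells: the CCN genes Ctgf and Cyr61, the target gene Ankrd1, the Hippo pathway genes Amotl2, Ajuba and Lats2, the coactivators Yap1 and Wwtr1, their DNA-binding partner Tead1, and the receptor kinase Axl. They were looked up by symbol and are 10 of the 17658 genes listed in the table of the SB431542 experiment and 9 of the 16719 listed in that of the T-5224 experiment, where Ankrd1 has no row. ASZ001 is a murine BCC cell line that the study describes as selected for resistance to SMO inhibitors, so all groups share this 1 line and its resistance. In the first experiment, 3 libraries came from cells kept with 10 µM SB431542, an inhibitor of the TGFß receptor kinase ALK5, for 24 h in low-serum medium, and 3 from cells kept with the vehicle DMSO. In the second, 2 libraries came from cells kept with 20 µM T-5224, an inhibitor of AP-1, for 24 h in the same medium, and 2 from their own DMSO controls. Each experiment has its own table and its own controls, so comparisons stayed within a table and no difference between the inhibitors was tested.

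YAP and TAZ (the protein of Wwtr1) are transcriptional coactivators that bind DNA through TEAD factors. The Hippo kinases phosphorylate them, with LATS1 and LATS2 as the kinases that act on them directly, and phosphorylated YAP and TAZ are held in the cytoplasm or degraded. Several of their target genes encode inhibitors of the pathway, among them Lats2 and Amotl2, and Ctgf and Cyr61, which encode secreted matricellular proteins of the CCN family, are widely used to read their activity in epithelial and other cells. Their activity depends on localization and phosphorylation of the proteins, which RNA levels do not show.

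All 4 keratinocyte markers were expressed, and the DMSO controls of SB431542 held 4889 ± 104 RPKM of Krt5 (SD, n = 3). RPKM divides the reads of a gene by its length in kilobases and by the sequencing depth. Of 15 markers of fibroblasts, immune cells, endothelium and melanocytes, 12 stayed at or below 0.580 RPKM or were not listed, among them Ptprc, Col1a1 and Mlana, and the other 3 (Dcn, Cd68, Pecam1) were above 1 RPKM. Depth lay between 32.1 and 51.5 M reads per library. DMSO replicate 1 of the SB431542 experiment stood apart from the rest, with an SD of 0.272 for the log2 deviations of its genes from the mean of its group's other libraries, against 0.123 to 0.190 in the other libraries.

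The sequences just upstream of these genes are shown first, since TEAD factors recognize a short core, GGAATG. A part of these cores in the changes described below was not tested. RefSeq promoter windows (GRCm38.p6) were found for 8 of the 10 genes. For Ctgf and Tead1 no window was used. On either strand of the 250 bases before the start, the core was present in 7 of these 8 genes, against 12.6% of all 32851 windows of that length, and Ankrd1 and Ajuba had 2 cores each. The count is by gene over all its windows, while the share is by window. The genes were picked as members of this pathway, so the contrast is a description and was not tested. Lats2 had none in either of its windows. These are matches of letters and not shown to be bound. The 250 bases before Cyr61 (chr3:145649986-145650235, minus strand) and Ankrd1 (chr19:36119845-36120094, minus strand) are given in full, because Cyr61 was among the genes that fell with both inhibitors and Ankrd1 was nearly silent. Capitals mark the core, or its reverse complement CATTCC.
Cyr61 promoter: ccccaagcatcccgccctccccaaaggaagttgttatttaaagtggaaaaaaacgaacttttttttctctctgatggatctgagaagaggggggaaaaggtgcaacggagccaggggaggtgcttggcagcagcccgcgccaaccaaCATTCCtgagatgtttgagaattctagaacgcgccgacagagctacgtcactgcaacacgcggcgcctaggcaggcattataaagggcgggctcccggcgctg
Ankrd1 promoter: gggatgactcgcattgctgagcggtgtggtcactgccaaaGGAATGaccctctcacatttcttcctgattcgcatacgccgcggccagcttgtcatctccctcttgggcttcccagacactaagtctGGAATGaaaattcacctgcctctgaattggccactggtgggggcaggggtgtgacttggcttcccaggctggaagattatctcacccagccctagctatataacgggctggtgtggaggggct

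The 9 cores are set side by side below, each read 5′ to 3′ on the strand that carries GGAATG and with 10 bases on either side, to show how far their surroundings differ. The core itself is in capitals.
Cyr61 core: aaacatctcaGGAATGttggttggcg
Ankrd1 upstream core: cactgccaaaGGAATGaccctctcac
Ankrd1 downstream core: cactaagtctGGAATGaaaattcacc
Amotl2 core: tgctatgccaGGAATGtgagagtttc
Ajuba upstream core: ggggcactgtGGAATGtatccatcaa
Ajuba downstream core: gtttacagttGGAATGcgcggagggg
Yap1 core: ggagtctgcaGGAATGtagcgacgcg
Wwtr1 core: taaactcaaaGGAATGcagataggcg
Axl core: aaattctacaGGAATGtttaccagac

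Of these 9 cores, 5 read in the direction of the gene and 4 on the opposite strand. The core nearest to a start was in Amotl2, from −65 to −60, where the base before the start is −1, and the farthest was in Axl, from −233 to −228. That of Cyr61 lay from −103 to −98 and those of the coactivator genes themselves from −141 to −136 in Yap1 and from −136 to −131 in the first of 2 windows of Wwtr1. An AP-1 site (TGANTCA, either strand) was found in 0 of the 8 genes, against 6.75% of all windows, and the short Smad box CAGAC in Ankrd1, Ajuba, Yap1 and Axl, against 42.2% of all windows. In Ankrd1, a Smad box on the opposite strand, from −127 to −123, overlapped the first base of its downstream TEAD core.

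**Figure D1:**
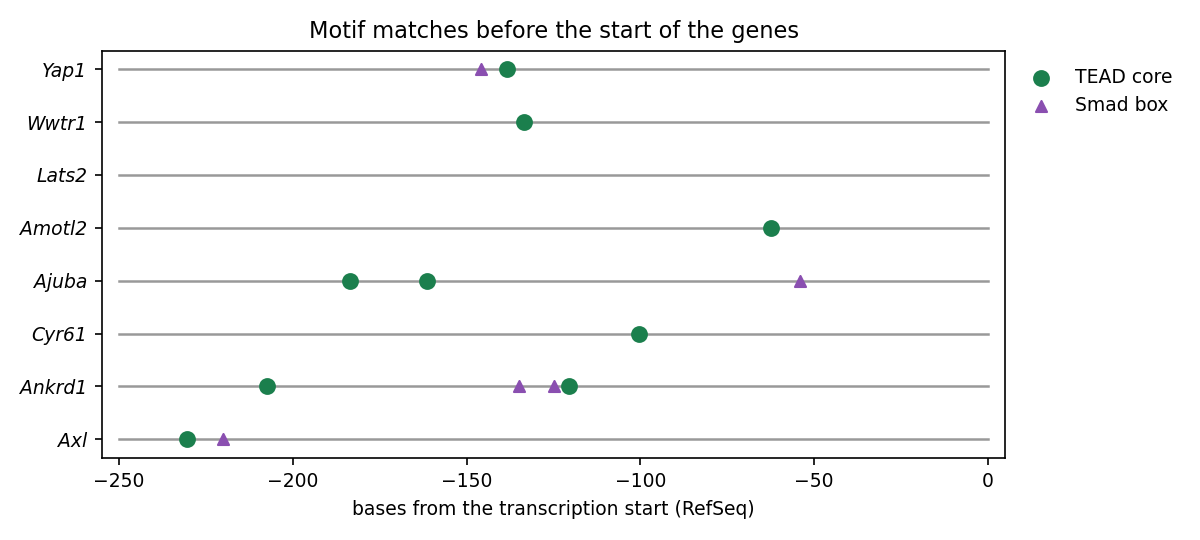
Position of each TEAD core (GGAATG, either strand) in the promoter windows of the genes, in bases before the RefSeq start, with Smad boxes (CAGAC) shown in the same rows. Of the 8 genes with a window, 7 held at least 1 core, at distances from −65 in Amotl2 to −233 in Axl.

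The CCN genes fell with both inhibitors, and Ctgf fell most of the genes followed. Ctgf (mm9 chromosome 10, 24315248 to 24318489) was at 21.9, 21.0 and 21.8 RPKM with DMSO and at 3.65, 3.72 and 4.53 RPKM with SB431542. In the T-5224 experiment it was at 13.9 and 15.4 RPKM with DMSO and at 2.53 and 2.80 RPKM with T-5224. Every treated library was below every DMSO library of its table, and the treated mean was 18.4% of the DMSO mean with SB431542 and 18.2% with T-5224. Such a lack of overlap, in either direction, was common: it held for 45.1% of all genes tested with SB431542 and 89.7% with T-5224. On the log2(RPKM + 0.5) scale SB431542 changed Ctgf by −2.31 (standard error 0.08, adjusted p = 2.50e-05, limma) and T-5224 changed it by −2.26 (standard error 0.09, adjusted p = 9.16e-10, limma). This was the fall of rank 3 among all 10842 genes tested with SB431542 and of rank 185 among the 10809 tested with T-5224.

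Cyr61 (mm9 chromosome 3, 145309935 to 145312949), whose promoter is printed above, was at 72.8, 79.8 and 82.8 RPKM with DMSO and at 44.3, 47.8 and 53.5 RPKM with SB431542. In the T-5224 experiment it was at 12.9 and 10.9 RPKM with DMSO and at 8.48 and 8.53 RPKM with T-5224. The groups did not overlap in either experiment, but the falls were smaller than 2-fold, with log2 changes of −0.69 (SB431542, standard error 0.08, adjusted p = 0.00219, limma) and −0.45 (T-5224, standard error 0.09, adjusted p = 4.55e-04, limma). The 95% confidence intervals of Ctgf and Cyr61 lay apart in each experiment, from −2.51 to −2.12 against −0.88 to −0.50 with SB431542 and from −2.45 to −2.06 against −0.64 to −0.26 with T-5224. Ankrd1, a muscle ankyrin repeat protein and common YAP/TAZ target, had both printed cores in its promoter but hardly any RNA. It was at 0.062, 0.092 and 0.056 RPKM with DMSO and at 0.1, 0.136 and 0.137 RPKM with SB431542, which is about 3.95 to 7.93 reads against 7.95 to 11.9 reads. It was below the minimum mean of 1 RPKM and was not tested.

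**Figure D2:**
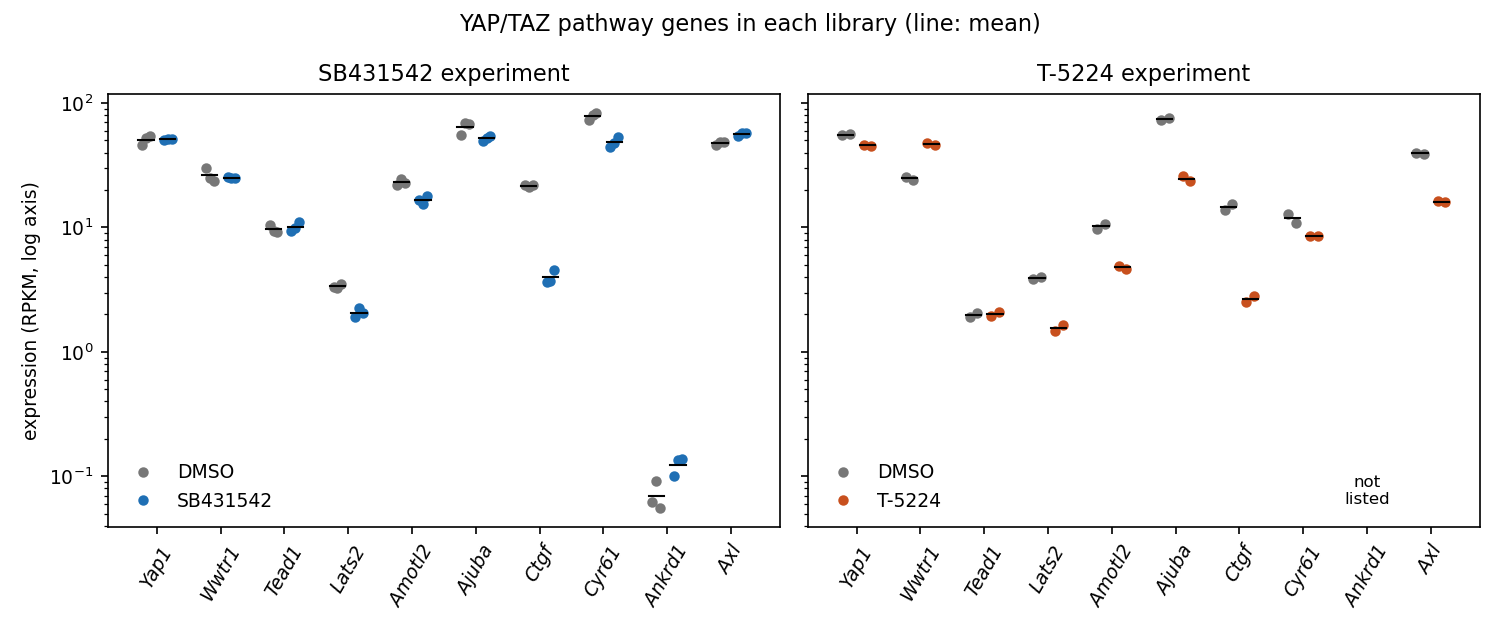
RPKM of each gene in each library, on a log axis, with DMSO and treated libraries of both experiments side by side (n = 3 and 3, n = 2 and 2). Ctgf with either inhibitor lay well below its DMSO libraries, while Tead1 overlapped in both experiments.

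Nov and Wisp1, the other CCN genes that could be tested, did not fall with both inhibitors as Ctgf and Cyr61 did. Nov (CCN3), a secreted protein of the same family, was at 4.24 to 5.08 RPKM with DMSO and at 9.97 to 10.9 RPKM with SB431542, a rise of 1.09 on the log2 scale (standard error 0.08, adjusted p = 2.70e-04, limma). With T-5224 it fell, from 12.3 and 12.4 RPKM to 4.52 and 4.63 RPKM (log2 change −1.34, standard error 0.08, adjusted p = 1.98e-08, limma). Wisp1 (CCN4) went the opposite way, falling by 0.42 with SB431542 (adjusted p = 0.0109, limma) and rising by 0.25 in log2 after T-5224 (adjusted p = 0.0136, limma). For both genes the treated libraries did not overlap the DMSO libraries in either experiment. The other 2 CCN genes, Wisp2 and Wisp3, were not tested, since Wisp2 was below 1 RPKM and Wisp3 had no row.

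The 3 Hippo pathway genes among the 10 were lower with T-5224, each by more than 2-fold, and Lats2 and Amotl2 were also lower with SB431542. Of all genes tested, 39.4% were lower with T-5224 (adjusted p under 0.05, limma), 10.6% by more than 2-fold, and 10.0% were lower with SB431542. Ajuba, a LIM protein that restrains LATS kinases, lies on mm9 chromosome 14 from 55186309 to 55196253. It was at 72.7 and 76.3 RPKM with DMSO and at 25.9 and 23.5 RPKM with T-5224, so the groups were far apart (log2 change −1.57, standard error 0.06, adjusted p = 1.08e-09, limma). With SB431542 it was at 49.9, 52.3 and 54.1 RPKM against 55.8, 69.2 and 68.0 RPKM with DMSO. All 3 treated libraries were below the lowest DMSO library, but the log2 change of −0.30 did not pass (standard error 0.09, adjusted p = 0.0511, limma). That lowest library was replicate 1, which stood apart, and without it the change was −0.39 and passed (adjusted p = 2.29e-04, limma).

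Lats2, the kinase that phosphorylates YAP and TAZ, lies on mm9 chromosome 14 from 58260914 to 58377225. It was at 3.30, 3.26 and 3.52 RPKM with DMSO and at 1.90, 2.25 and 2.06 RPKM with SB431542. With T-5224 it was at 1.48 and 1.66 RPKM, against 3.82 and 4.03 RPKM with DMSO. Every treated library was below every DMSO library, with log2 changes of −0.59 (SB431542, standard error 0.08, adjusted p = 0.00400, limma) and −1.10 (T-5224, standard error 0.11, adjusted p = 2.01e-06, limma). Its family member Lats1 changed otherwise, by −0.07 with SB431542 (adjusted p = 0.368, limma), while T-5224 raised it by 0.28 on the log2 scale (adjusted p = 0.00546, limma).

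Amotl2, an angiomotin-like protein that binds YAP and keeps it out of the nucleus, lies on mm9 chromosome 9 from 102619002 to 102635748. It was at 22.03, 24.3 and 22.9 RPKM with DMSO and at 16.5, 15.4 and 17.9 RPKM with SB431542. With T-5224 it was at 4.89 and 4.66 RPKM, against 9.80 and 10.8 RPKM with DMSO. The groups did not overlap in either experiment, with log2 changes of −0.47 (SB431542, standard error 0.07, adjusted p = 0.00595, limma) and −1.03 (T-5224, standard error 0.08, adjusted p = 3.92e-07, limma). Both Amotl2 and Lats2 stand close to the 2-fold limit with T-5224. With a pseudocount of 1, their changes were −0.96 and −0.94. Amotl2 also fell short of it without DMSO replicate 2 of that table (−0.96) and without T-5224 replicate 2 (−0.998), while its adjusted p stayed under 0.05.

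Axl, a receptor tyrosine kinase and YAP/TAZ target (mm9 chromosome 7, 26542292 to 26573724), moved in opposite directions. It was at 39.9 and 38.8 RPKM with DMSO and at 16.3 and 16.05 RPKM with T-5224 (log2 change −1.26, standard error 0.06, adjusted p = 3.90e-09, limma). With SB431542 it was at 54.6, 57.3 and 57.2 RPKM against 45.8, 49.1 and 48.8 RPKM with DMSO. The treated libraries were all below the DMSO libraries with T-5224 and all above them with SB431542, where the rise was 0.23 on the log2 scale (standard error 0.05, adjusted p = 0.0214, limma). This rise rests on the full set of libraries: its adjusted p was 0.0510 without DMSO replicate 2 and 0.0641, 0.0998 and 0.0959 without SB431542 replicate 1, 2 or 3 (limma).

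**Figure D3:**
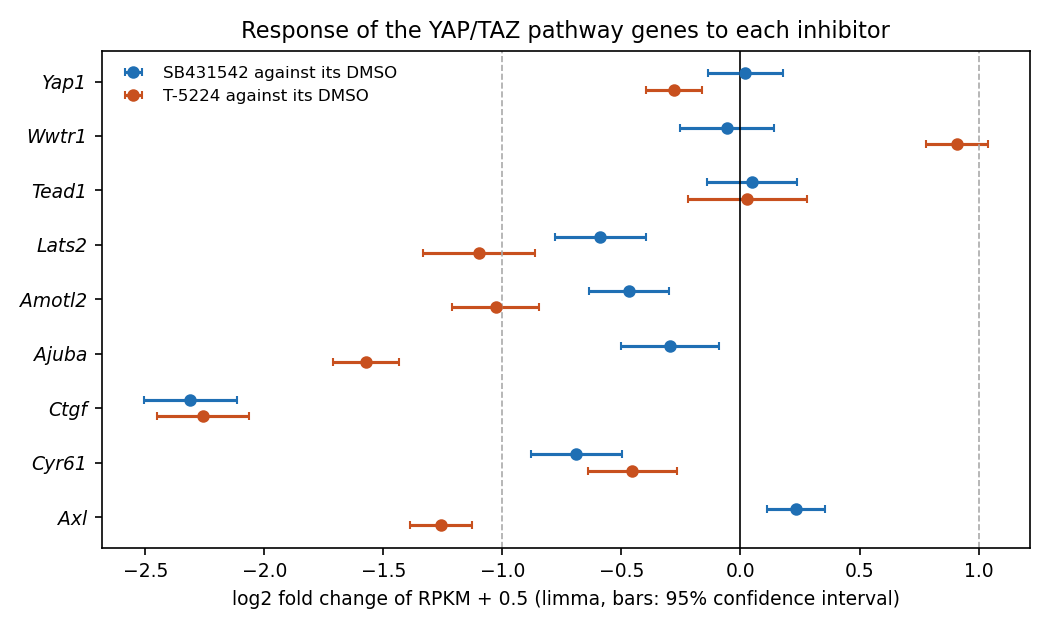
Change of each tested gene with each inhibitor against its own DMSO libraries, as log2 fold change of RPKM + 0.5 with the 95% confidence interval from limma; dashed lines mark 2-fold. Ctgf was at −2.31 and −2.26, Axl lay on opposite sides of 0, and Wwtr1 was the gene that rose with T-5224.

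Counted over the 9 genes tested in each experiment, 5 were called down with T-5224 (Ctgf, Ajuba, Axl, Lats2, Amotl2), which means a fall of more than 2-fold with an adjusted p under 0.05 (limma), and 0 were called up. Over all genes tested, 10.6% were called down and 10.4% up. The 10 genes and the lists below were chosen with earlier results of these data known. Their shares are therefore set beside those of all genes only as a description. With SB431542 only Ctgf was called down, against 0.581% of all genes tested, and 0 were called up, against 0.231%. With no limit on the fold, 7 of the 9 genes were lower and 1 was higher with T-5224, against 39.4% and 40.3% of all genes. With SB431542, 4 were lower and 1 was higher, against 10.0% and 10.2%. The median log2 change of the 9 genes was −1.03 with T-5224 and −0.30 with SB431542, and over all genes tested it was 0.003 and 0.008. Treated libraries lay wholly on 1 side of the DMSO libraries in 8 of the 9 genes with T-5224, against 89.7% of all genes, a share near the background. With SB431542 this held for 6 of the 9 tested genes, since Yap1, Wwtr1 and Tead1 overlapped, against 45.1% of all genes.

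The coactivators themselves did not pass the threshold with SB431542. Yap1 (mm9 chromosome 9, 7931999 to 8004596) was at 45.8, 52.1 and 53.8 RPKM with DMSO and at 50.9, 51.3 and 51.5 RPKM with SB431542. Wwtr1 (mm9 chromosome 3, 57259571 to 57379832) was at 29.9, 25.1 and 23.8 RPKM with DMSO and at 25.3, 24.9 and 25.1 RPKM with SB431542. For both genes the SB431542 libraries lay inside the range of the DMSO libraries, and the log2 changes were 0.02 for Yap1 (95% confidence interval −0.14 to 0.18, adjusted p = 0.852, limma) and −0.06 for Wwtr1 (95% confidence interval −0.25 to 0.14, adjusted p = 0.659, limma). DMSO replicate 1, which stood apart, had the lowest Yap1 and the highest Wwtr1 of these libraries, and without it the changes were −0.05 and 0.04, also not past the threshold.

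With T-5224 the coactivators changed in opposite directions, and their levels came together. Wwtr1 was at 25.4 and 24.3 RPKM with DMSO and at 48.1 and 46.0 RPKM with T-5224. Yap1 was at 55.0 and 55.9 RPKM with DMSO and at 46.1 and 45.1 RPKM with T-5224. Neither pair of groups overlapped, and Wwtr1 rose by 0.91 on the log2 scale (standard error 0.06, adjusted p = 5.58e-08, limma), just under 2-fold, while Yap1 changed by −0.28 (standard error 0.05, adjusted p = 4.74e-04, limma). The share of Wwtr1 in the summed RPKM of both genes was 30.9 ± 0.908% (SD, n = 2) with DMSO and 50.8 ± 0.394% (SD, n = 2) with T-5224, so the RNA of the pair came to be split about equally. An exact permutation test of this share gave p = 0.333 (two-sided), the smallest value that 2 against 2 libraries allow. In the SB431542 experiment the share was 34.2 ± 4.63% with DMSO and 32.9 ± 0.287% with SB431542 (SD, n = 3 each; exact permutation test, two-sided, p = 1, smallest possible 0.1).

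**Figure D4:**
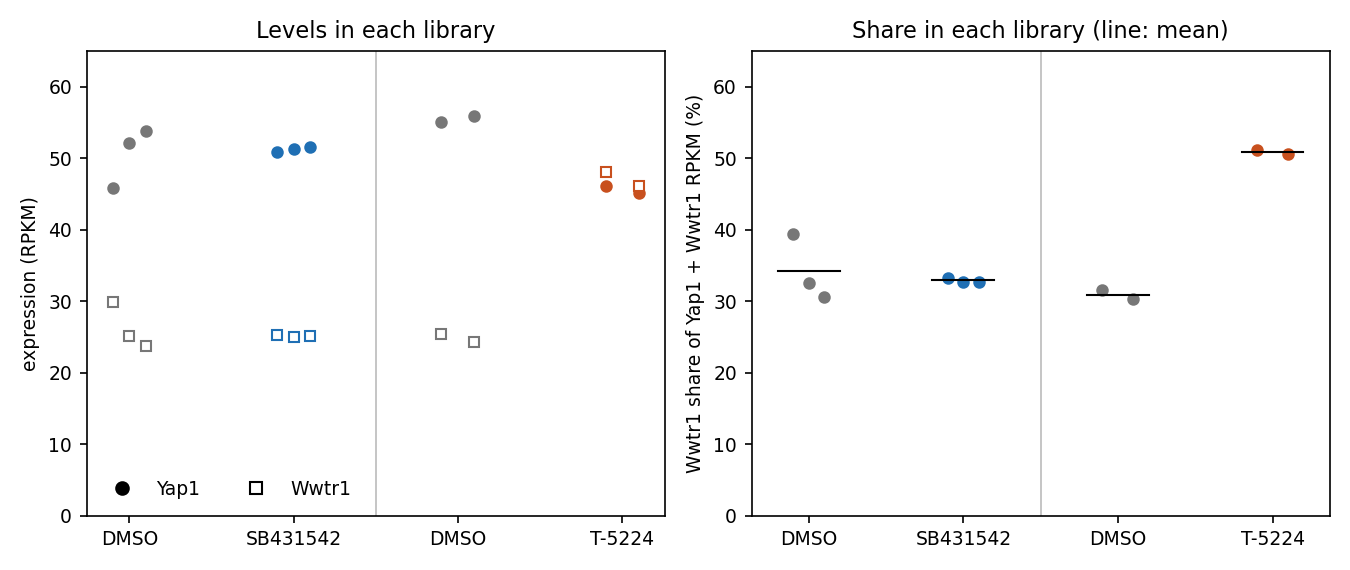
RPKM of Yap1 and Wwtr1 in each library, by group. With T-5224 the Wwtr1 libraries reached 46.0 and 48.1 RPKM and met the range of Yap1 (45.1 and 46.1 RPKM), while in the other groups Wwtr1 stayed below 30 RPKM.

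Of the TEAD factors and their VGLL cofactors, Tead1 (mm9 chromosome 7, 119822832 to 120050319) did not pass in either experiment. It was at 10.5, 9.41 and 9.26 RPKM with DMSO and at 9.31, 9.87 and 11.0 RPKM with SB431542, and at 1.89 and 2.06 RPKM with DMSO and at 1.94 and 2.11 RPKM with T-5224. The groups overlapped each time, with log2 changes of 0.05 (95% confidence interval −0.14 to 0.24, adjusted p = 0.709, limma) and 0.03 (95% confidence interval −0.22 to 0.28, adjusted p = 0.828, limma). GENCODE's annotation of mm9, used here for positions, has a second gene model of the same name at its 3′ end. Whether the counting behind the deposited RPKM used that model is not known here. If it did, reads may be split between the models. Tead4, another TEAD factor, fell with T-5224 from 19.6 ± 1.63 to 8.84 ± 0.307 RPKM (SD, n = 2 each; log2 change −1.11, adjusted p = 1.02e-07, limma), and so did Vgll4, a cofactor that competes with YAP for TEAD, from 75.3 ± 1.72 to 33.8 ± 1.53 RPKM (log2 change −1.15, adjusted p = 6.59e-09, limma). Over the 5 genes of this list that were tested beside Tead1, 4 were lower with T-5224 and 2 of these were called down, against 39.4% and 10.6% of all genes tested, with a median log2 change of −0.81. With SB431542, 3 of the 5 were lower, against 10.0% of all genes, and 0 were called, against 0.581% down and 0.231% up. The median was −0.19, and the largest fall was −0.27 in Vgll3 (adjusted p = 0.0358, limma).

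Of the Hippo kinases, adaptors and upstream regulators other than the 10 genes, 20 were tested in each experiment. With SB431542, 3 were lower and 0 were higher, against 10.0% and 10.2% of all genes, 0 were called, against 0.581% down and 0.231% up, and the median log2 change was 0.01. The largest fall was −0.50 in Ptpn14, a phosphatase that binds YAP (adjusted p = 0.00170, limma), followed by −0.39 in Wwc2, a scaffold of the LATS kinases (adjusted p = 0.00269, limma), and the largest rise, 0.24 in Limd1, did not pass (adjusted p = 0.125, limma). With T-5224, 12 were lower and 4 were higher, against 39.4% and 40.3% of all genes, and the median log2 change was −0.29. There, 2 of the 20 were called down and 0 were called up, against 10.6% and 10.4% of all genes, so the share called down is near the background. Taok2, a kinase upstream of the Hippo kinases, fell from 14.6 ± 0.636 to 5.88 ± 0.218 RPKM (SD, n = 2 each; log2 change −1.25, adjusted p = 3.48e-08, limma), and Ptpn14 from 55.7 ± 0.977 to 26.1 ± 0.825 RPKM (log2 change −1.08, adjusted p = 1.05e-08, limma). The largest rise was 0.61 in Mob1a, the adaptor that activates LATS kinases (adjusted p = 1.67e-06, limma).

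A list of 16 further genes widely used as YAP/TAZ targets, of which 15 were tested, was spread more widely. With T-5224, 9 were lower and 5 higher, against 39.4% and 40.3% of all genes, and 5 were called down and 2 up, against 10.6% and 10.4%. The median log2 change was −0.41. Gadd45a, a gene induced by growth arrest and DNA damage, rose from 8.44 and 9.63 RPKM to 180.1 and 180.2 RPKM (log2 change 4.25, adjusted p = 9.38e-13, limma), and F3, tissue factor, rose from 0.959 and 1.21 RPKM to 10.8 and 13.2 RPKM (log2 change 2.98, adjusted p = 1.06e-09, limma). Tgfb2, which encodes a TGFß ligand, fell from 24.2 and 25.9 RPKM to 1.21 and 1.33 RPKM (log2 change −3.85, adjusted p = 1.18e-11, limma). The treated libraries of these 3 genes were far outside the range of their DMSO libraries. Rbms3 fell by 1.25 on the log2 scale and Crim1 by 1.22, and Ptpn14, which stands in both lists, was also called down. With SB431542, 6 were lower and 2 were higher, against 10.0% and 10.2% of all genes, and 0 were called, against 0.581% down and 0.231% up. The median was −0.15, and the changes ran from −0.50 in Rbms3 (adjusted p = 0.00463, limma) to 0.53 in Nuak2 (adjusted p = 0.0223, limma). Nt5e, the ecto-nucleotidase CD73, fell by 0.49 with SB431542 (adjusted p = 0.00178, limma), and T-5224 raised it by 0.73 on the log2 scale (adjusted p = 1.11e-06, limma).

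**Figure D5:**
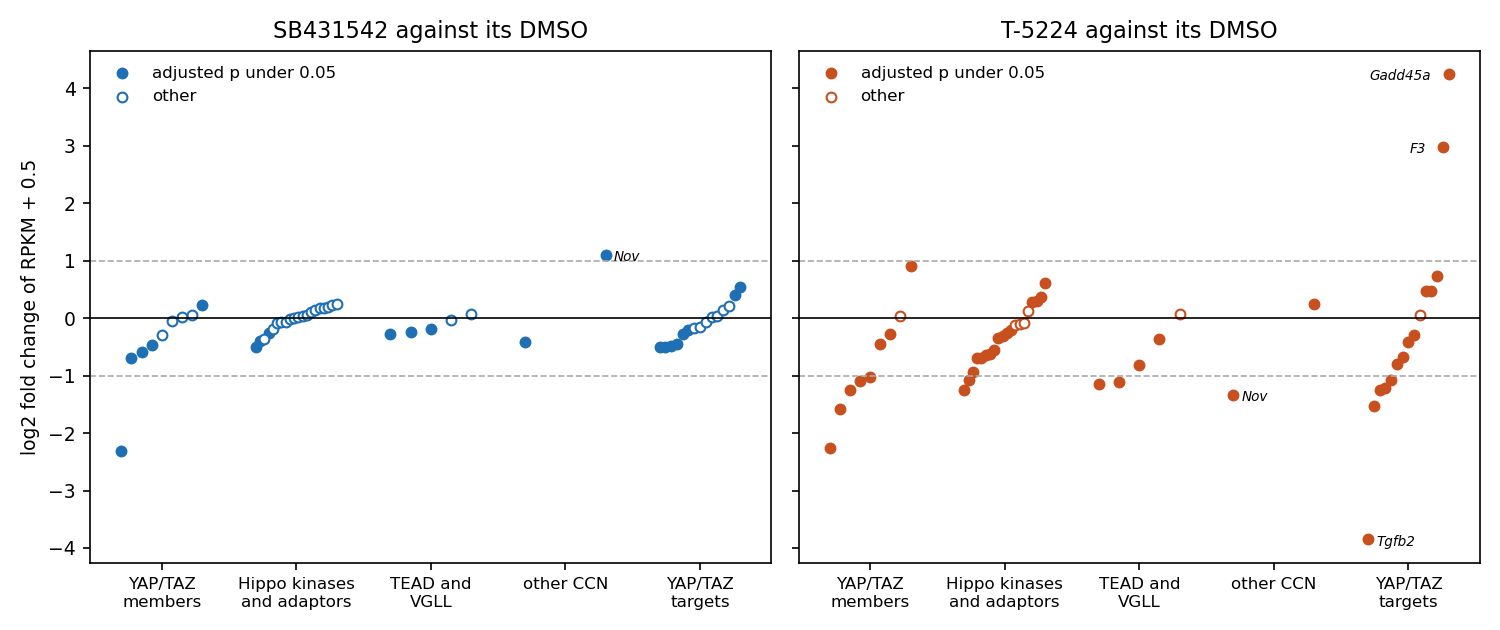
Log2 fold change (RPKM + 0.5) of every tested gene in the 10 genes and in each pathway list, 1 point per gene and ordered within a list, for SB431542 and T-5224 against their own DMSO libraries; filled points have an adjusted p under 0.05, and dashed lines mark 2-fold. With T-5224 the points run from −3.85 (Tgfb2) to 4.25 (Gadd45a), and with SB431542 Ctgf and Nov lie beyond 2-fold.

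In level, on the RPKM scale, Cyr61 was the highest of the 10 genes among the DMSO controls of SB431542, at 78.5 ± 5.13 RPKM (SD, n = 3), followed by Ajuba, Yap1, Axl, Wwtr1, Amotl2, Ctgf, Tead1, Lats2 and Ankrd1. Of these neighbours, Yap1 and Axl overlapped, as did Wwtr1 and Amotl2, and the others did not. With SB431542, Axl came first at 56.4 ± 1.52 RPKM, Ajuba, Yap1 and Cyr61 overlapped after it, and Ctgf had dropped below Tead1. In the T-5224 experiment the order with DMSO was Ajuba, Yap1, Axl, Wwtr1, Ctgf, Cyr61, Amotl2, Lats2 and Tead1, with no overlap between neighbours. With T-5224 it began with Wwtr1 and Yap1, which overlapped, and Ajuba had moved from the first to the third place.

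Cell type markers moved too, most of all those of the keratinocyte with T-5224. The summed RPKM of the 4 keratinocyte markers was 11613 to 12263 with DMSO and 1523 to 1582 with T-5224. Krt5 fell by 3.35 on the log2 scale, Krt14 by 2.82, Trp63 by 0.59 and Cdh1 by 0.54, with adjusted p-values of at most 1.45e-06 (limma). The sum was 9103 to 9266 with DMSO and 6326 to 6777 with SB431542. Of the markers of other cells, Pecam1 fell with SB431542, from 5.75 ± 0.718 to 2.69 ± 0.127 RPKM (SD, n = 3 each; log2 change −0.97, adjusted p = 0.00103, limma). Among the fibroblast markers, Dcn rose from 2.13 ± 0.0772 to 3.71 ± 0.254 RPKM (log2 change 0.68, adjusted p = 0.00178, limma). Col1a1, Col1a2 and Pdgfra went the other way, with every SB431542 library below every DMSO library. Their DMSO means were 0.094, 0.120 and 0.160 RPKM, too low to be tested. Pdgfrb was near 0 and overlapped, and Lum was not listed. The 3 immune markers summed to 16.7 to 18.6 RPKM with DMSO and to 32.7 to 33.2 RPKM with T-5224, nearly all of it Cd68, while Ptprc and Cd3e were at 0 in the T-5224 libraries. The 3 endothelial markers summed to 10.7 to 11.8 RPKM with DMSO and to 4.11 to 4.67 RPKM with T-5224, with Kdr not listed and Cdh5 at 0 in the T-5224 libraries. The part of these changes in the changes of the YAP/TAZ genes was not tested. In RNA from whole cultures, fewer cells of a kind and less RNA per cell cannot be told apart.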

How the data were processed

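RNA-seq of ASZ001 cells was deposited by the authors as 1 table per experiment of RPKM per gene and library, made, per the labels, with TopHat on mm9 and HOMER. Whether counting used strand was not given in the sources used here. Counts were not used here, so no count test was run. Groups came from the sample labels. The T-5224 table numbers its DMSO columns 1 and 2, and these numbers name the libraries here. The study calls the replicates biological. The limma p-values set each change against the spread between these libraries, moderated with the spread of other genes of similar level. They therefore do not rest on the 2 or 3 libraries of a group alone.

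Symbols turned into dates were dropped (22 and 23 rows). The fit took log2(RPKM + 0.5) of genes whose mean over a table reached 1 RPKM (10842 with SB431542, 10809 with T-5224) and used limma 3.58.1 under R 4.3.3, that is, empirical Bayes moderation with a trend of variance on the mean. P-values were adjusted by Benjamini-Hochberg over all genes tested. Genes were called beyond 2-fold with an adjusted p under 0.05, and lower or higher at that p alone. Fold changes on this scale understate those of low genes. Depth was worked out from genes shorter than 250 bases with up to 6 reads, whose RPKM steps were whole reads within 0.05 in all values used, and limits the precision of Ankrd1 only.

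The 10 genes and all lists were chosen with earlier results of these data known. Genes named are the 10, list genes called in at least 1 experiment (1 of them is not reported here), the largest rise and fall of each list, the 5 genes most like Ctgf, and, chosen after their values were seen, Wwc2, Lats1 and Nt5e. Positions of genes come from GENCODE's annotation of NCBIM37 (mm9), where Ajuba is named Jub, and promoters from RefSeq, GRCm38.p6. The fit was tested on simulated data. Alternatives were pseudocounts of 0.1 and 1, no filter or a mean of at least 5 RPKM, median centring, quantile normalization, no trend, no limit on the fold, a replicate block for SB431542, and each library left out; leaving out libraries for the lists was added after the data were seen.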

Additional observations from a re-analysis of the deposited data

How the results depend on the processing

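With no limit on the fold change, 5 of the 9 tested genes passed an adjusted p under 0.05 (limma) with SB431542 and 8 of 9 with T-5224. This was in place of 1 and 5 called. Of the 41 list genes tested, 15 and 35 passed, in place of 1 and 11 called. Over all genes tested, 10.0% were lower and 10.2% higher with SB431542, and 39.4% and 40.3% with T-5224. The shares called down and up were 0.581% and 0.231% with SB431542, and 10.6% and 10.4% with T-5224. With a pseudocount of 1 and with quantile normalization, 3 of the 10 genes were called with T-5224, since Amotl2 and Lats2 were under 2-fold (quantile: −0.99 and −0.98). With a mean of at least 5 RPKM the count was 4, since Lats2 was not tested. Leaving out each library gave 4 to 5 with T-5224 and 1 with SB431542. The call of Ctgf was made under every alternative tried. The size of its adjusted p with T-5224 depended on the fit, from 9.16e-10 in the main fit to 9.7e-07 with no trend and 9.3e-05 with no filter (limma).

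Changes near 0 turned sign without passing the threshold: Yap1 with SB431542 was −0.0106 with quantile normalization. Leaving out each library, it ran from −0.0481 (without DMSO replicate 1) to 0.0669, Wwtr1 from −0.124 to 0.0367 (without DMSO replicate 1), and Tead1 from −0.0173 (without SB431542 replicate 3) to 0.101. Tead1 with T-5224 ran from −0.0216 (without DMSO replicate 1) to 0.0781, with −0.0212 without T-5224 replicate 2. Ajuba with SB431542 passed with median centring (adjusted p = 0.0405) and with quantile normalization (0.0428, limma).

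Same-numbered libraries of the SB431542 experiment did not deviate together (correlations of −0.148, 0.151 and −0.0949), so the numbers were not taken to pair them. With the replicate block, 1 of the 10 genes and 1 gene of the lists were called, and Axl had an adjusted p of 0.0604 (limma). The T-5224 experiment was not fitted with a block, since its groups share no replicate numbers in the labels, which number the DMSO libraries otherwise than the table does. With 2 libraries a group, leaving 1 out assumes that the lone library varies like the other group, and no exact test can pass 0.05 in either experiment.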

Other observations

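The genes whose pattern over the 10 libraries was most like that of Ctgf, by Pearson r of log2(RPKM + 0.5) with each table's mean subtracted, were Papss2 (r = 0.997), a sulfate donor synthase, Nuak1 (0.995), an AMPK-related kinase, Cyp26b1 (0.991), an enzyme that degrades retinoic acid, Myo1d (0.991), an unconventional myosin, and Klf10 (0.988), a TGFß-inducible zinc finger factor, out of 10461 genes. These r mostly describe the steps between the groups, which the libraries of a group share. Papss2 changed by −1.20 with SB431542 and by −1.25 with T-5224 on the log2 scale, and Klf10 by −0.88 and −0.76, values that the choice by likeness to Ctgf partly fixes. Among the YAP/TAZ genes, Cyr61 (r = 0.947, rank 107), Lats2 (0.942, rank 126) and Amotl2 (0.915, rank 274) were closest to Ctgf. Ajuba had r = 0.771, Yap1 0.465 and Axl 0.432, and r was negative for Wwtr1 (−0.542) and Tead1 (−0.200). Of these last genes, Tead1 did not pass the threshold in either experiment, and Wwtr1 passed it only with T-5224.

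The DMSO libraries of the tables differed in some of these genes, a comparison of levels that was not tested because they belong to separate experiments. Cyr61 was at 78.5 ± 5.13 RPKM (SD, n = 3) in the SB431542 table and at 11.9 ± 1.39 RPKM (SD, n = 2) in the T-5224 table, a log2 difference of −2.67. Tead1 differed by −2.05 and Amotl2 by −1.13, while Ctgf differed by −0.54 and Yap1 by 0.13. Over the 10462 genes tested in both tables the median difference was 0.01, with quartiles of −0.39 and 0.38, and Cyr61 lay at percentile 1.63 and Tead1 at percentile 3.31.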
